A study of Mus musculus with 27 samples.

Results

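The comparison asks what a probiotic complex adds to FOLFOX in the mouse colon. It sets the 5 CAC_FP libraries against the 5 CAC_F libraries, chosen by their labelled treatment, 10 of the 27 libraries of the series. All 10 came from BALB/c mice labelled WT with colon neoplasia raised by AOM/DSS, that is, the carcinogen azoxymethane followed by the irritant dextran sulfate sodium. CAC_FP mice had FOLFOX by intraperitoneal injection and the probiotic complex by gavage. CAC_F mice had the same injections and saline by gavage. FOLFOX combines fluorouracil and oxaliplatin with folinic acid, which strengthens the action of fluorouracil. The tissue was a segment of colon that bore tumor, taken 1 week after chemotherapy began, so each library mixes tumor, adjacent mucosa and wall. Neither the strains of the probiotic complex nor the age of the mice is given in the sources used here, and the labels put all libraries in 1 batch. CAC denotes 5 mice with AOM/DSS and saline in place of both agents, and is used below only for orientation.

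Fluorouracil and oxaliplatin damage dividing cells, and in the gut they injure the crypts that renew the lining. The injured mucosa recruits neutrophils and monocytes through chemokines and prostaglandins, and its goblet cells and absorptive colonocytes are lost and replaced. NAD+, the redox cofactor named in the series title, is made from nicotinamide by way of Nampt, from nicotinic acid by way of Naprt and Nadsyn1, or from tryptophan, and is spent by PARP enzymes, sirtuins and Cd38.

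Total counts were 63276601 to 72343614 in CAC_FP and 61433532 to 77206403 in CAC_F. Epithelial genes were present in every library: Epcam, an adhesion protein of epithelium, lay at 1039 to 1320 CPM (reads scaled to a common library size after TMM scaling) in CAC_FP and 778 to 1285 CPM in CAC_F. Lct, a small intestinal enzyme, reached at most 0.0589 CPM in CAC_FP and 0.0960 CPM in CAC_F. Other small intestinal genes were higher: Sis lay at 8.62 to 33.7 CPM in CAC_FP and 0 to 26.6 CPM in CAC_F. Fabp6 reached 3.54 CPM in CAC_FP and 7.61 CPM in CAC_F, and Gata4 2.82 and 5.25 CPM. Of 9 tested genes of small intestine and Paneth cells 8 had a positive log2 fold change of CAC_FP over CAC_F. Their median was 0.59, and 0.93 without CAC_F replicates 1 and 2. CAC_F replicates 1 and 2 stood apart. On the first principal component of the 10 libraries, which held 32.3% of the variance, they lay at -45.8 and -74.4, and CAC_F replicates 3 to 5 at -10.9 to 24.8. Many values are therefore given both with and without CAC_F replicates 1 and 2, an option chosen after seeing the data. CAC_FP replicate 4 lay apart on the other side at 57.7, and the other CAC_FP libraries at -0.8 to 24.1. It had the highest CAC_FP level of Guca2a, Car1, Cyp2c55 and Aoc1, and values of single genes without it are not given. CAC_FP replicate 3 stood apart in single genes: Lgals2, a galectin, was at 114 CPM there and at no more than 1.5 CPM in any of the other 9 libraries.

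No gene passed edgeR's test between CAC_FP and CAC_F. Of 15080 genes tested, edgeR's quasi-likelihood test with Benjamini-Hochberg adjustment called 0 (0%) at an adjusted p below 0.05, and the smallest adjusted p was 0.119. Before adjustment 2401 genes (15.9%) had a p below 0.05, of which 1330 (8.82%) were higher in CAC_FP and 1071 (7.1%) lower. The groups did not overlap in 348 genes (2.31%), with all CAC_FP libraries above all CAC_F libraries in 204 (1.35%) and below them in 144 (0.955%). DESeq2 called 238 genes (1.58%), 118 (0.782%) higher in CAC_FP and 120 (0.796%) lower, and voom with library weights called 38. One library decided the count in edgeR: without CAC_F replicate 3 it called 616 genes, 365 higher and 251 lower, and without CAC_F replicate 5 it called 3, all lower (Arih2, Phf14 and the predicted gene Gm44751, of which the last 2 are named here after their values were seen).

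The fits held most genes within 1 log2 unit of no difference, which leaves room for smaller differences. The median half-width of the 95% interval of a log2 fold change was 0.373, and in 11673 genes (77.4%) the whole interval lay within 1 log2 unit of no difference. The median log2 fold change over all genes tested was -0.0038, and 49.5% of genes had a positive one. Without CAC_F replicates 1 and 2 the genes at an unadjusted p below 0.05 numbered 644 (4.27%). Of the 2401 genes, 2363 had the same direction without the 2 libraries and 522 also had a p below 0.05. Of the 348 genes whose groups did not overlap, 157 had a p below 0.05 without the 2 libraries. All 348 kept their direction, which the way they were picked fixes in advance, so this is no sign of stability. The counts of 2363, 522 and 157 rest on libraries that also served to pick the genes, so they are no independent sign of stability either.

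The genes with the smallest p in each direction were mostly small, tight differences. Hddc2, an HD-domain phosphatase, had 7.95, 10.8, 9.35, 8.94 and 10.3 CPM in CAC_FP, against 14.3, 15.1, 11.3, 16.9 and 14.8 CPM in CAC_F. Every CAC_FP library lay below every CAC_F library, with a log2 fold change of -0.61 ± 0.12 (SE) and an adjusted p of 0.119 in edgeR. Without CAC_F replicates 1 and 2 the log2 fold change was again -0.61, and voom called Hddc2 at an adjusted p of 0.0154. Commd10, a subunit of the COMMD complex that sorts endosomal cargo, had 18.4, 19.1, 20.6, 20.4 and 18.4 CPM in CAC_FP, against 30.1, 27.7, 22.8, 25.2 and 24.4 CPM in CAC_F. These groups did not overlap either, and the log2 fold change was -0.43 ± 0.09 (adjusted p = 0.119 in edgeR and 0.0154 in voom). Arih2, an E3 ubiquitin ligase that works with cullin complexes, had 77.0 to 98.5 CPM in CAC_FP and 99.9 to 181 CPM in CAC_F, with the 2 highest values in CAC_F replicates 1 and 2. Its log2 fold change was -0.62 ± 0.13, and -0.40 without those libraries. Tatdn2, a nuclease, lay at 49.7 to 62.3 CPM in CAC_FP and 60.2 to 109.6 CPM in CAC_F, a log2 fold change of -0.59 ± 0.11, and of -0.38 without the 2 libraries.

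Adam8, a membrane protease of myeloid and activated epithelial cells, had 22.7, 26.7, 13.3, 13.1 and 24.7 CPM in CAC_FP, against 45.2, 88.4, 26.4, 48.1 and 45.2 CPM in CAC_F. CAC_FP replicate 2 and CAC_F replicate 3 met at 26.7 and 26.4 CPM, and otherwise CAC_FP lay below. It had a log2 fold change of -1.33 ± 0.29, and -1.0 ± 0.30 without CAC_F replicates 1 and 2. Map3k9, a kinase upstream of JNK, had 9.41 to 14.3 CPM in CAC_FP and 14.0 to 28.2 CPM in CAC_F, with a log2 fold change of -0.71 ± 0.16 and, without those 2 libraries, of -0.56.

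Among the genes with the smallest p on the higher side, Adipor2, a receptor for adiponectin, had 188, 148, 195, 177 and 185 CPM in CAC_FP, against 118, 96.8, 133, 115 and 134 CPM in CAC_F. Every CAC_FP library lay above every CAC_F library, and the log2 fold change was 0.58 ± 0.13 with an adjusted p of 0.119 in edgeR. Tmem39a, a protein of the endoplasmic reticulum, had 35.3 to 48.1 CPM in CAC_FP and 26.8 to 34.2 CPM in CAC_F, and its log2 fold change was 0.45 ± 0.10 with all libraries and 0.50 ± 0.11 without CAC_F replicates 1 and 2. Leng1 had 17.8 to 22.9 CPM in CAC_FP and 10.3 to 17.3 CPM in CAC_F, with its 2 lowest values in CAC_F replicates 1 and 2. Its log2 fold change was 0.58 ± 0.12, and 0.39 without them. Fam149b had 29.1 to 35.0 CPM in CAC_FP and 21.4 to 27.9 CPM in CAC_F. Tssk4, a kinase known from testis, was low throughout, at 0.957 to 2.71 CPM in CAC_FP and 0.330 to 0.759 CPM in CAC_F.

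**Figure D1:**
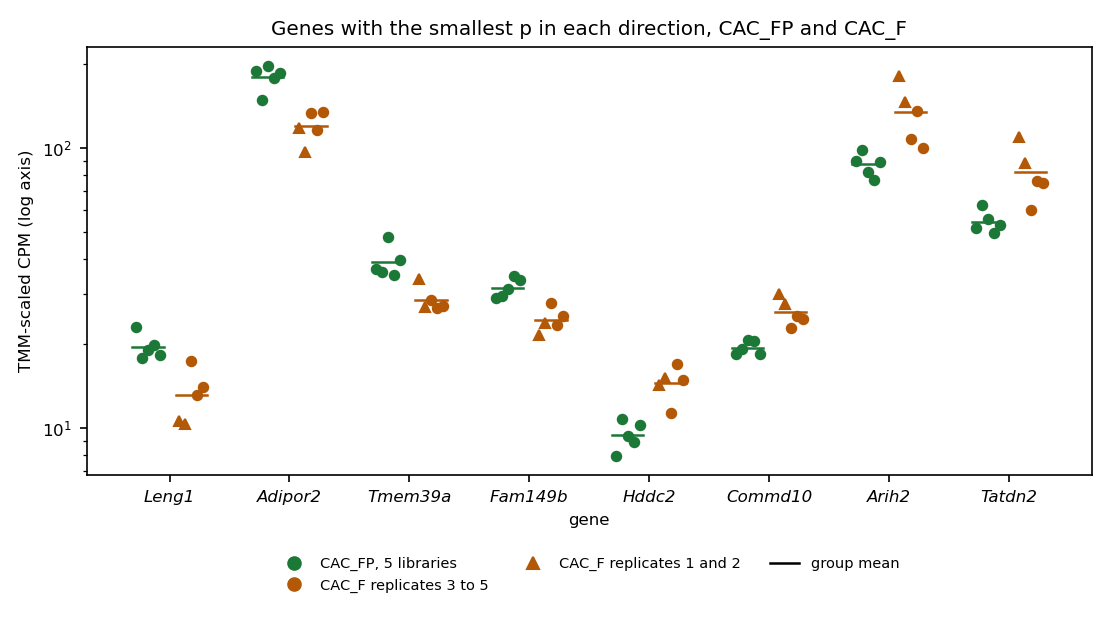
Levels of 8 genes among those with the smallest p, in TMM-scaled CPM on a log axis, with 1 point per library, triangles for CAC_F replicates 1 and 2 and a line at each group mean. The 4 genes on the left have all CAC_FP libraries above CAC_F, and of the 4 on the right Hddc2, Commd10 and Arih2 have all CAC_FP libraries below CAC_F, while Tatdn2 overlaps in 1 library (62.3 CPM in CAC_FP against 60.2 CPM in CAC_F).

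Cd209a and Otc had the widest differences among these 8 genes of the higher side. Cd209a, a lectin of dendritic cells related to human DC-SIGN, had 3.93, 0.294, 1.68, 1.41 and 3.88 CPM in CAC_FP, against 0.430, 0.185, 0.328, 0.165 and 0.168 CPM in CAC_F. CAC_FP replicate 2 lay within the CAC_F range, and the other 4 CAC_FP libraries lay above it. Its log2 fold change was 3.13 ± 0.62 and the adjusted p 0.119. In CAC it averaged 3.00 CPM. Otc, ornithine transcarbamylase, a mitochondrial enzyme of the urea cycle that the intestine uses to make citrulline, had 0.602, 0.795, 10.2, 8.01 and 0.918 CPM in CAC_FP, against 0, 0, 0.491, 0.210 and 0 CPM in CAC_F. CAC_FP replicates 3 and 4 were far above the rest, yet the groups did not overlap. On the log2 scale the difference was 4.86 ± 1.06, and 4.14 ± 1.19 without CAC_F replicates 1 and 2.

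Genes of acute inflammation had the lowest median of the 29 lists described, and 2 CAC_F libraries carried most of it. All 21 tested members of a list of 25 inflammatory cytokines, chemokines and proteases had a negative log2 fold change, with a median of -2.18 against -0.0038 over all genes, and 11 had an unadjusted p below 0.05, where 7.1% of all genes did on the lower side. None passed after adjustment in edgeR, and DESeq2 called 5 (Il11, Lif, Ptgs2, Mmp10 and Mmp13), where it called 0.796% of all genes on the lower side. Without CAC_F replicates 1 and 2 the median was -0.17, with 10 positive and 11 negative, and 0 members had an unadjusted p below 0.05. In summed level the list held 64.0 to 479 CPM in CAC_FP and 224 to 2721 CPM in CAC_F.

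Ptgs2, the inducible cyclooxygenase that makes prostaglandin precursors, had 6.66, 6.58, 8.72, 3.17 and 6.55 CPM in CAC_FP, against 321, 255, 7.97, 6.21 and 10.5 CPM in CAC_F. CAC_F replicates 1 and 2 were more than an order of magnitude above every other library, and CAC_F replicates 3 to 5 overlapped CAC_FP. The log2 fold change of -4.24 ± 0.92 (adjusted p = 0.119, edgeR) became -0.39 ± 0.57 without the 2 libraries. Lif, a cytokine of the interleukin-6 family, had 13.7, 13.5, 10.4, 4.43 and 7.88 CPM in CAC_FP, against 109, 90.0, 10.1, 17.2 and 25.6 CPM in CAC_F. Here 4 of the 5 CAC_F libraries lay above all CAC_FP libraries, and the log2 fold change was -2.33 ± 0.51 with all libraries and -0.83 ± 0.41 without the 2.

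Mmp13, a collagenase, had 6.93, 14.1, 8.38, 8.81 and 10.7 CPM in CAC_FP, against 28.2, 209.8, 10.9, 8.12 and 22.2 CPM in CAC_F. CAC_F replicate 2 alone was above 30 CPM, and CAC_F replicates 3 and 4 lay within the CAC_FP range. On the log2 scale the difference was -2.51 ± 0.66, and -0.50 ± 0.46 without CAC_F replicates 1 and 2. Cxcl1, a chemokine that draws neutrophils, had 97.9, 15.4, 31.1, 0.167 and 31.7 CPM in CAC_FP, against 778, 319, 2.64, 19.4 and 20.6 CPM in CAC_F. Its values spread over more than 2 orders of magnitude within each group, and the log2 fold change of -2.69 ± 1.33 turned to 1.30 ± 1.40 without the 2 libraries. Il1b, interleukin 1 beta, likewise went with them: 3.48 to 31.5 CPM in CAC_FP and 2.86 to 115 CPM in CAC_F, with a log2 fold change of -1.83 ± 0.76, and of 0.24 ± 0.72 without CAC_F replicates 1 and 2.

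The sequence just before the start site of 3 of these genes is shown because it holds motifs of NF-κB and AP-1, the factors best known for inducing inflammatory genes. They are the 250 bases upstream of the start in RefSeq on build GRCm38.p6, all on the plus strand, 5′ to 3′, at chr5:90890995-90891244 for Cxcl1, chr9:7272264-7272513 for Mmp13 and chr11:4257318-4257567 for Lif. Capitals mark a κB match (GGGA, any 2 bases, TTCC) in Cxcl1, where the matches on the 2 strands overlap, and an AP-1 match (TGANTCA) in Mmp13 and Lif.
Cxcl1: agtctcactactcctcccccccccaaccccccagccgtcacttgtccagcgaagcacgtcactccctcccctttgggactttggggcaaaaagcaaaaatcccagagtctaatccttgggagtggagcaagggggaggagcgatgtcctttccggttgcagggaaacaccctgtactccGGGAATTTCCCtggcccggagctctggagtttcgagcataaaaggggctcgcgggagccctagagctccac
Mmp13: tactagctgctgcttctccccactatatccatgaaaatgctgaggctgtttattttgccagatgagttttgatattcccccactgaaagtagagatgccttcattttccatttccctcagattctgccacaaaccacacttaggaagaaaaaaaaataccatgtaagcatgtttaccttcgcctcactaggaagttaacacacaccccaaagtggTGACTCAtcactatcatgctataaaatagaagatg
Lif: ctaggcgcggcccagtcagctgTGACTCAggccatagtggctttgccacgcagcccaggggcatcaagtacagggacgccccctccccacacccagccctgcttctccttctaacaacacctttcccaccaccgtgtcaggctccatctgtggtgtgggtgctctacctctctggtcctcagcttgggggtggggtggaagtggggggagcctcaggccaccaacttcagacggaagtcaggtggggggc
Of the 21 tested members, 13 were matched to the RefSeq table by symbol. The κB letters were found on either strand in 3 of the 13 (Cxcl1, Cxcl2 and Il6) and in 1.21% of all 32851 windows of that length. The AP-1 letters were found in 7 of the 13 (Il11, Il1a, Il6, Lif, Mmp10, Mmp13 and Mmp3) and in 6.75% of all windows. A match is a run of letters and not a site shown to be bound.

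**Figure D2:**
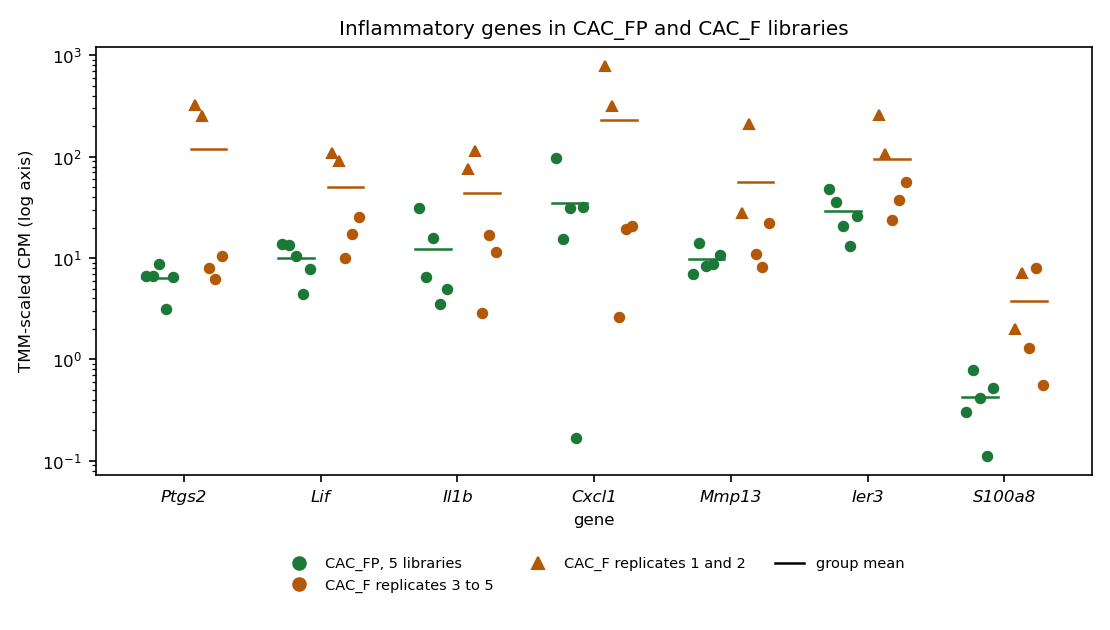
Levels of 7 inflammatory genes per library, in TMM-scaled CPM on a log axis, with triangles for CAC_F replicates 1 and 2 and a line at each group mean. For Ptgs2 these 2 libraries lie at 321 and 255 CPM and all others at 10.5 CPM or less, whereas S100a8 is highest in CAC_F replicate 4, at 8.05 CPM.

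Most genes of neutrophils were near or under the filter on low values. Of 14 listed, 6 were tested, 5 of them negative, with a median log2 fold change of -0.97, and of -0.62 without CAC_F replicates 1 and 2. The list summed to 104 to 671 CPM in CAC_FP and 290.4 to 1078 CPM in CAC_F. Most of it was Ly6g, known as a surface antigen of neutrophils, which averaged 376 CPM in CAC_FP and 665 CPM in CAC_F (log2 fold change -0.82). S100a8 and S100a9, also on the list, averaged only 0.425 and 0.522 CPM in CAC_FP and 3.80 and 6.77 CPM in CAC_F. The sum thus follows Ly6g and is no measure of neutrophils, and the cells that gave Ly6g were not tested. S100a8, a subunit of the antimicrobial calprotectin, had 0.301, 0.780, 0.415, 0.111 and 0.519 CPM in CAC_FP, against 2.02, 7.11, 1.28, 8.05 and 0.564 CPM in CAC_F. CAC_F replicate 5 lay within the CAC_FP range, and the other 4 CAC_F libraries lay above it. The log2 fold change was -3.16 ± 1.15 (adjusted p = 0.192, edgeR). Without CAC_F replicates 1 and 2 it was -2.96 ± 1.26 (adjusted p = 0.969, edgeR). That value rested largely on CAC_F replicate 4, at 8.05 CPM, against CAC_FP levels of at most 0.780 CPM. S100a9, its partner, had 0 to 1.56 CPM in CAC_FP and 0.536 to 18.4 CPM in CAC_F. In bulk tissue, fewer cells of a type and less RNA per cell cannot be told apart.

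Of 18 tested genes of macrophages and monocytes, 14 were negative, with a median of -0.40, and of -0.09 without CAC_F replicates 1 and 2. Lyz2, a lysozyme of myeloid cells, had 267 to 469 CPM in CAC_FP and 392 to 962 CPM in CAC_F, a log2 fold change of -0.72 ± 0.35. Arg1, arginase of alternatively activated macrophages, had 2.14 to 7.00 CPM in CAC_FP and 2.52 to 25.3 CPM in CAC_F, with only CAC_F replicate 2 above 10 CPM, and a log2 fold change of -1.10 ± 0.45, and of -0.33 ± 0.43 without the 2 libraries. Among 15 tested genes of prostaglandin metabolism, 8 were positive and 7 negative, with a median of 0.09, and of 0.10 without the 2 libraries. The unadjusted p was below 0.05 in 5, all negative (Hpgds, Pla2g4a, Ptges, Ptgs1 and Ptgs2), where 7.1% of all genes did on the lower side. Without the 2 libraries it was below 0.05 in 0. Hpgds, a synthase of prostaglandin D2, lay at 5.71 to 10.6 CPM in CAC_FP and 9.35 to 14.3 CPM in CAC_F (log2 fold change -0.61 ± 0.20).

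The epithelial wound response was lower in CAC_FP in most members. Of 19 tested genes of EGFR ligands and repairing epithelium, 16 were negative. The unadjusted p was below 0.05 in 9 on the lower side, where 7.1% of all genes did, and in 1 on the higher side. Without CAC_F replicates 1 and 2 it was below 0.05 in 2. In 3, Anxa1 and Clu among them, every CAC_FP library lay below every CAC_F library, where 0.955% of all genes did so. After adjustment edgeR called none and DESeq2 called 1, on the lower side, where it called 0.796% of all genes. The median was -0.76, and -0.45 without CAC_F replicates 1 and 2. Anxa1, an annexin that restrains inflammation, had 260.4, 299, 222, 140.3 and 258 CPM in CAC_FP, against 351, 536, 301, 347 and 494 CPM in CAC_F. CAC_FP replicate 2 and CAC_F replicate 3 nearly touched, and the log2 fold change was -0.78 ± 0.26, and -0.70 ± 0.30 without the 2 libraries. Plau, urokinase, differed otherwise: its log2 fold change of -1.13 ± 0.39 became 0.01 ± 0.31 without them.

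Immediate early genes, which cells switch on within minutes of a stimulus, had medians on opposite sides of 0 with and without the 2 libraries. Of 18 tested, 16 were negative with a median of -0.41, and without CAC_F replicates 1 and 2, 15 were positive with a median of 0.21. Dusp1, a phosphatase that shuts off MAP kinases, had 69.8, 62.2, 36.1, 23.1 and 60.4 CPM in CAC_FP, against 239, 171, 25.7, 47.7 and 43.0 CPM in CAC_F. Only CAC_F replicates 1 and 2 lay outside the range of CAC_FP, and the log2 fold change was -1.06 ± 0.58 with them and 0.37 ± 0.57 without. Ier3, an early gene of stressed cells, had 13.0 to 48.4 CPM in CAC_FP and 23.8 to 255 CPM in CAC_F, with a log2 fold change of -1.73 ± 0.48, and of -0.44 ± 0.39 without them.

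Genes of mature epithelium lay in the other direction. Of 17 tested goblet cell genes 16 had a positive log2 fold change, with a median of 0.54, and without CAC_F replicates 1 and 2 all 17 were positive with a median of 0.61. Over all genes 49.5% were positive. Neither edgeR nor DESeq2 called any after adjustment, and 3 had an unadjusted p below 0.05 in edgeR, where 8.82% of all genes did on the higher side. Without the 2 libraries 1 had. Foxa3, a transcription factor of goblet cells, had 40.2, 46.8, 33.5, 43.7 and 53.4 CPM in CAC_FP, against 20.7, 12.6, 30.3, 30.5 and 38.4 CPM in CAC_F. CAC_F replicate 5 lay within the CAC_FP range, and the log2 fold change was 0.71 ± 0.26, and 0.39 ± 0.25 without the 2 libraries. Atoh1, which commits cells to the secretory lineage, had 30.1 to 72.1 CPM in CAC_FP and 3.79 to 41.0 CPM in CAC_F (log2 fold change 1.08 ± 0.44, and 0.68 ± 0.41 without the 2). Creb3l1, a factor for secretory capacity, had 86.9 to 143 CPM in CAC_FP and 38.7 to 89.9 CPM in CAC_F. Muc2, the gel-forming mucin itself, spread too widely within each group to separate them, at 3103 to 23801 CPM in CAC_FP and 1873 to 17373 CPM in CAC_F (log2 fold change 0.46 ± 0.54).

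Of 21 tested genes of absorptive colonocytes 16 were positive, with a median of 0.31, and of 0.15 without CAC_F replicates 1 and 2. Guca2a, guanylin, which controls fluid secretion, had 251, 278, 385, 642 and 267 CPM in CAC_FP, against 198, 32.7, 157, 188 and 119 CPM in CAC_F. The groups did not overlap, and the log2 fold change was 1.39 ± 0.38 (adjusted p = 0.132, edgeR), and 1.23 ± 0.37 without the 2 libraries. Car1, a carbonic anhydrase of surface colonocytes, had 4458, 3951, 4731, 7808 and 3623 CPM in CAC_FP, against 2965, 331, 2405, 2407 and 2531 CPM in CAC_F. CAC_F replicate 2 was far below the rest, and the groups again did not overlap. The log2 fold change was 1.21 ± 0.60. Slc26a3, the chloride and bicarbonate exchanger of the surface, had 39.5 to 143 CPM in CAC_FP and 15.2 to 138 CPM in CAC_F, with a log2 fold change of 0.01 ± 0.61, and of -0.45 ± 0.66 without the 2 libraries.

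Enzymes that handle drugs, retinoids and dietary amines had the highest list median of the epithelium with all libraries. Without CAC_F replicates 1 and 2 the medians of goblet cell genes (0.61) and of small intestine and Paneth cell genes (0.93) were higher. Of 25 tested 20 were positive with a median of 0.62, and without CAC_F replicates 1 and 2 the median was 0.53. The unadjusted p was below 0.05 in 5, all on the higher side, where 8.82% of all genes did. Without the 2 libraries it was below 0.05 in 3. Cyp2c55, a cytochrome P450 of the mouse colon, had 177, 89.9, 126, 838 and 155 CPM in CAC_FP, against 86.3, 1.23, 29.7, 41.6 and 69.7 CPM in CAC_F. The groups did not overlap, CAC_FP replicate 4 was the highest and CAC_F replicate 2 the lowest, and the log2 fold change was 2.60 ± 0.99. Cyp2s1 and the sulfotransferase Sult1b1 had log2 fold changes of 1.35 ± 0.44 and 0.74 ± 0.25. Aoc1, the diamine oxidase that breaks down histamine and putrescine, was among the genes with the smallest p, at 41.7, 44.7, 44.6, 84.3 and 31.8 CPM in CAC_FP, against 12.1, 6.31, 25.6, 24.8 and 14.5 CPM in CAC_F. All CAC_FP libraries lay above all CAC_F libraries, and the log2 fold change was 1.57 ± 0.34 (adjusted p = 0.119, edgeR), and 1.18 ± 0.35 without the 2 libraries.

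**Figure D3:**
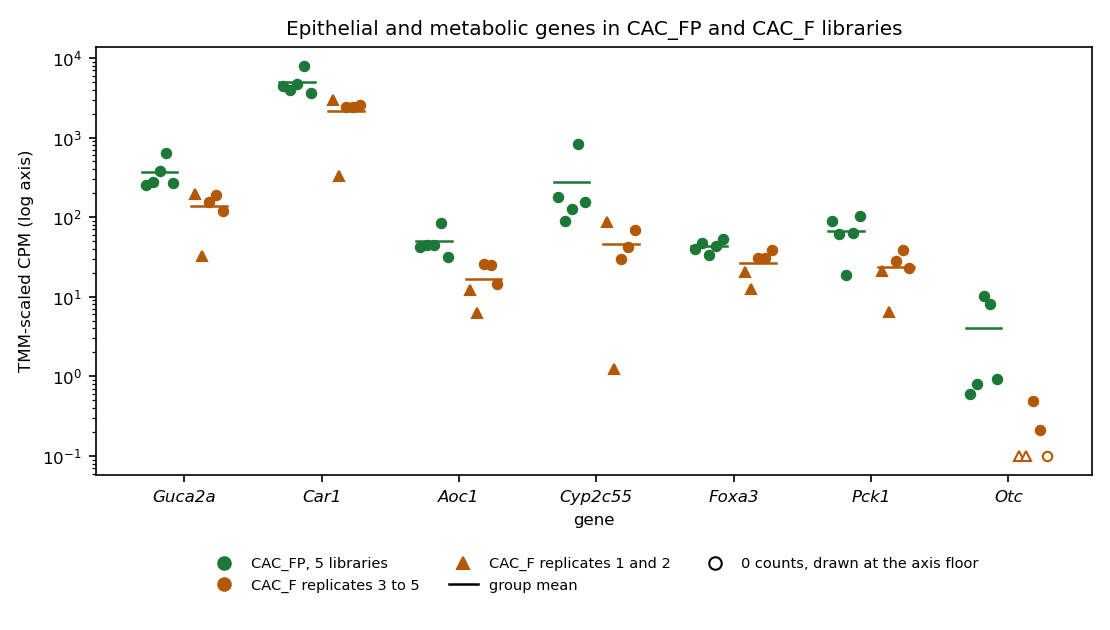
Levels of 7 epithelial and metabolic genes per library, in TMM-scaled CPM on a log axis, with triangles for CAC_F replicates 1 and 2, a line at each group mean (not drawn for Otc in CAC_F) and open symbols for libraries with 0 counts. Guca2a, Car1, Aoc1, Cyp2c55 and Otc do not overlap between the groups, while Foxa3 overlaps at 38.4 CPM in CAC_F and Pck1 at 18.7 CPM in CAC_FP.

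Barrier genes were mixed. Of 18 tested genes of tight junctions and adhesion 12 were positive, with a median of 0.12, and 8 were positive without CAC_F replicates 1 and 2, with a median of -0.04. Cldn15, a claudin that lets sodium pass, had 125 to 189 CPM in CAC_FP and 28.4 to 123 CPM in CAC_F, without overlap (log2 fold change 0.76 ± 0.29, and 0.47 ± 0.26 without the 2 libraries). Cldn4, a sealing claudin, lay on the other side, at 31.0 to 119 CPM in CAC_FP and 100.1 to 209 CPM in CAC_F (-0.99 ± 0.44). The scaffold Tjp1 and occludin, Ocln, had log2 fold changes of -0.11 ± 0.15 and 0.11 ± 0.16, and the 95% intervals ran over -0.42 to 0.20 and over -0.22 to 0.45, and without the 2 libraries the values were -0.14 and -0.04.

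Of 18 tested antimicrobial and epithelial defence genes 5 were positive, with a median of -0.22, and 9 without CAC_F replicates 1 and 2, with a median of 0.09. Reg4, a secreted lectin, had 28.1, 20.4, 509, 21.6 and 66.7 CPM in CAC_FP, against 41.3, 8.89, 12.4, 8.44 and 7.50 CPM in CAC_F. CAC_FP replicate 3 alone gave most of its log2 fold change of 3.04 ± 1.22. Reg3a, a bactericidal lectin, had 1.19 to 1.77 CPM in CAC_FP and 1.28 to 20.4 CPM in CAC_F, with 3 CAC_F libraries above 12 CPM, and log2 fold changes of -2.68 ± 1.05 and, without the 2 libraries, of -1.76 ± 1.14. Among 19 tested sensors of microbes 9 were positive and 10 negative, with a median of -0.11, and of 0.03 without the 2 libraries. Nlrp6, an inflammasome sensor of the epithelium, had 79.3, 76.1, 176, 238 and 74.1 CPM in CAC_FP, against 17.4, 6.93, 168, 57.2 and 25.1 CPM in CAC_F. CAC_F replicate 3 lay within the CAC_FP range, and the log2 fold change was 1.23 ± 0.55, and 0.61 ± 0.49 without CAC_F replicates 1 and 2. Tlr7 and Tlr13, which sense RNA, had log2 fold changes of -0.72 ± 0.30 and -0.71 ± 0.27, and of -0.53 and -0.45 without the 2 libraries. All 13 tested enteroendocrine genes were negative, with a median of -0.50, and without CAC_F replicates 1 and 2, 11 were negative with a median of -0.14. Gcg, the proglucagon gene of L cells, had 12.4 to 89.7 CPM in CAC_FP and 56.9 to 145 CPM in CAC_F (-0.90 ± 0.40), with the lowest value in CAC_FP replicate 3.

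Lymphocyte lists differed among themselves, and their medians were nearer to 0 without the 2 CAC_F libraries for T and B cells. Of 17 tested T cell genes 11 were negative, with a median of -0.45, and of -0.11 without CAC_F replicates 1 and 2. Ctla4, an inhibitory receptor of regulatory and activated T cells, had 3.94, 2.37, 1.40, 2.87 and 2.94 CPM in CAC_FP, against 22.1, 20.1, 3.93, 4.92 and 3.61 CPM in CAC_F. CAC_F replicates 1 and 2 stood above 20 CPM and no other library above 5 CPM. This gave a log2 fold change of -2.02 ± 0.52, and -0.63 ± 0.46 without them. Tcf7, a factor of naive and memory T cells, had 10.9 to 17.5 CPM in CAC_FP and 17.6 to 28.3 CPM in CAC_F. Of 20 tested genes of B and plasma cells 14 were negative, with a median of -0.51, and of -0.20 without CAC_F replicates 1 and 2. Igha, the constant chain of IgA, had a log2 fold change of -0.58 ± 0.28, and of -0.21 ± 0.30 without them. Genes of cytotoxic and NK cells lay the other way: 5 of 6 tested were positive, with a median of 0.28, and 4 without the 2 libraries, with a median of 0.37. Of 29 tested interferon response genes 20 were positive, with a median of 0.16, and of 0.23 without the 2 libraries. Mx1, an antiviral GTPase, had 8.20 to 16.5 CPM in CAC_FP and 3.93 to 12.0 CPM in CAC_F (0.87 ± 0.41).

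Targets of p53, the factor that platinum and fluorouracil damage is known to activate, leaned lower in CAC_FP. Of 29 tested 23 were negative, with a median of -0.32, and of -0.25 without CAC_F replicates 1 and 2. The unadjusted p was below 0.05 in 9, all on the lower side, where 7.1% of all genes did. Without the 2 libraries it was below 0.05 in 2, where 4.27% of all genes did in either direction. Plk2, a kinase of the stress response, had 34.5, 33.3, 18.4, 18.7 and 24.6 CPM in CAC_FP, against 74.1, 92.4, 24.7, 34.3 and 58.2 CPM in CAC_F. CAC_F replicates 3 and 4 met the CAC_FP range, and the log2 fold change was -1.13 ± 0.28 (adjusted p = 0.132, edgeR), and -0.60 ± 0.28 without the 2 libraries. Cdkn1a, the p21 inhibitor of the cell cycle, had 124 to 222 CPM in CAC_FP and 173 to 341 CPM in CAC_F, a log2 fold change of -0.60 ± 0.23, and of -0.40 ± 0.25 without the 2 libraries. Proliferation genes also leaned lower: 27 of 30 were negative, with a median of -0.20, and all 30 without CAC_F replicates 1 and 2, with a median of -0.32. None of the 30 had an unadjusted p below 0.05 with all libraries, and 1, the thymidine kinase Tk1, did without the 2. Mki67, the marker of dividing cells, had 187 to 305 CPM in CAC_FP and 255 to 414 CPM in CAC_F (-0.28 ± 0.23). Lgr5, the crypt stem cell receptor, was under the filter on low values and was at 0.438 to 4.06 CPM in CAC_FP and 0.216 to 1.5 CPM in CAC_F.

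Stress pathways differed among themselves. Of 21 tested genes of endoplasmic reticulum stress and the integrated stress response 15 were positive, with a median of 0.32, and 19 without CAC_F replicates 1 and 2, with a median of 0.26. The unadjusted p was below 0.05 in 7 on the higher side, where 8.82% of all genes did, and in 1 on the lower side (Ppp1r15a, a phosphatase subunit that ends the integrated stress response, at -1.01, and at 0.05 without the 2 libraries). Without the 2 libraries the unadjusted p was below 0.05 in only 1 of the 21. Ddit3, the transcription factor CHOP, had 12.5, 12.7, 14.2, 15.1 and 11.9 CPM in CAC_FP, against 7.10, 7.34, 10.9, 10.4 and 8.78 CPM in CAC_F. The groups did not overlap, and the log2 fold change was 0.57 ± 0.17 (adjusted p = 0.15, edgeR), and 0.39 ± 0.19 without the 2 libraries. Dnajb9, a co-chaperone of the endoplasmic reticulum, had 48.5 to 63.2 CPM in CAC_FP and 33.7 to 48.9 CPM in CAC_F, with log2 fold changes of 0.45 ± 0.11 and, without the 2, of 0.49 ± 0.12. Nfe2l2, which encodes the antioxidant factor Nrf2, had 169 to 272 CPM in CAC_FP and 75.0 to 169.7 CPM in CAC_F (log2 fold change 0.62 ± 0.20, and 0.34 ± 0.19 without the 2 libraries). Gclc, the limiting enzyme of glutathione synthesis and a target, had 93.6 to 128 CPM in CAC_FP and 126 to 298 CPM in CAC_F (-0.75 ± 0.19, and -0.73 ± 0.22 without the 2 libraries). Of 20 tested targets 12 were negative, with a median of -0.12, and -0.14 without the 2 libraries.

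The genes listed for NAD+ synthesis had small positive differences, and the best known of them none that could be resolved. Of 15 listed genes of NAD+ synthesis 12 were tested and 11 had a positive log2 fold change, with a median of 0.19, and 10 without CAC_F replicates 1 and 2, with a median of 0.16. The summed level of the list was 801 to 931 CPM in CAC_FP and 674 to 763 CPM in CAC_F, and in CAC it was 716 to 918 CPM. After adjustment edgeR called none and DESeq2 called 2, Nnt (adjusted p = 0.0421) and Nadsyn1 (0.0490), where DESeq2 called 0.782% of all genes on the higher side. In edgeR 3 had an unadjusted p below 0.05, against 8.82% of all genes on the higher side, and 2 had one without the 2 libraries. Nnt is on the list but couples NADH and NADPH in the mitochondrion and does not itself build NAD+. It had 54.0, 47.7, 45.2, 59.1 and 44.3 CPM in CAC_FP, against 37.5, 41.4, 39.0, 40.6 and 42.7 CPM in CAC_F. Every CAC_FP library lay above every CAC_F library. The log2 fold change was 0.31 ± 0.09 (adjusted p = 0.132, edgeR) and 0.29 ± 0.10 without the 2 libraries.

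Nadsyn1, NAD synthetase, which makes the last step from nicotinic acid and from tryptophan, had 26.9, 28.4, 38.0, 44.6 and 28.0 CPM in CAC_FP, against 13.2, 9.44, 32.1, 21.3 and 20.8 CPM in CAC_F. CAC_F replicate 3 lay within the CAC_FP range. The log2 fold change of 0.78 ± 0.22 was 0.41 ± 0.19 without CAC_F replicates 1 and 2. Naprt, which opens the nicotinic acid route, had 26.4, 29.1, 31.3, 47.0 and 27.8 CPM in CAC_FP, against 21.9, 12.6, 22.2, 29.0 and 24.7 CPM in CAC_F, and CAC_F replicate 4 lay within the CAC_FP range. Its log2 fold change was 0.55 ± 0.22, and 0.34 ± 0.24 without the 2 libraries. Nampt, the limiting enzyme of the salvage route from nicotinamide, had 84.7 to 136 CPM in CAC_FP and 78.7 to 118 CPM in CAC_F. Its log2 fold change was 0.05 ± 0.16 with a 95% interval of -0.28 to 0.38, and 0.17 ± 0.19 without the 2 libraries. Nmnat1, which makes NAD+ in the nucleus, and Nmrk1, a kinase for nicotinamide riboside, had log2 fold changes of 0.21 ± 0.14 and 0.16 ± 0.19, and of 0.03 and 0.05 without the 2 libraries.

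Of 20 tested genes that spend NAD+ 16 were positive, with a median of 0.09, and 11 without CAC_F replicates 1 and 2, with a median of 0.02. The mitochondrial deacetylase Sirt3 and the nuclear Sirt7 had log2 fold changes of 0.54 ± 0.18 and 0.33 ± 0.10, and of 0.32 ± 0.19 and 0.19 ± 0.10 without the 2 libraries. Parp3 also had an unadjusted p below 0.05 on the higher side, at 0.33 ± 0.16. Sirt7 lay at 63.8 to 69.4 CPM in CAC_FP and 40.5 to 63.3 CPM in CAC_F, without overlap. Tiparp, a PARP enzyme induced by the aryl hydrocarbon receptor, lay the other way at -0.75 ± 0.21, with 27.5 to 31.3 CPM in CAC_FP and 27.1 to 90.0 CPM in CAC_F, and its value without the 2 libraries was -0.15 ± 0.14. Parp1, the main consumer after DNA breaks, and Sirt1 had log2 fold changes of 0.04 ± 0.16 and 0.08 ± 0.14, and of -0.19 and 0.04 without the 2 libraries. Cd38, a hydrolase on immune and epithelial cells, had 246 to 342 CPM in CAC_FP and 179 to 548 CPM in CAC_F (-0.44 ± 0.29). Nnmt, which methylates nicotinamide, had a log2 fold change of 1.34 ± 0.81. Of the route from tryptophan only 3 of 12 genes were tested, among them Ido1, its first enzyme, at -0.35 ± 0.87.

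**Figure D4:**
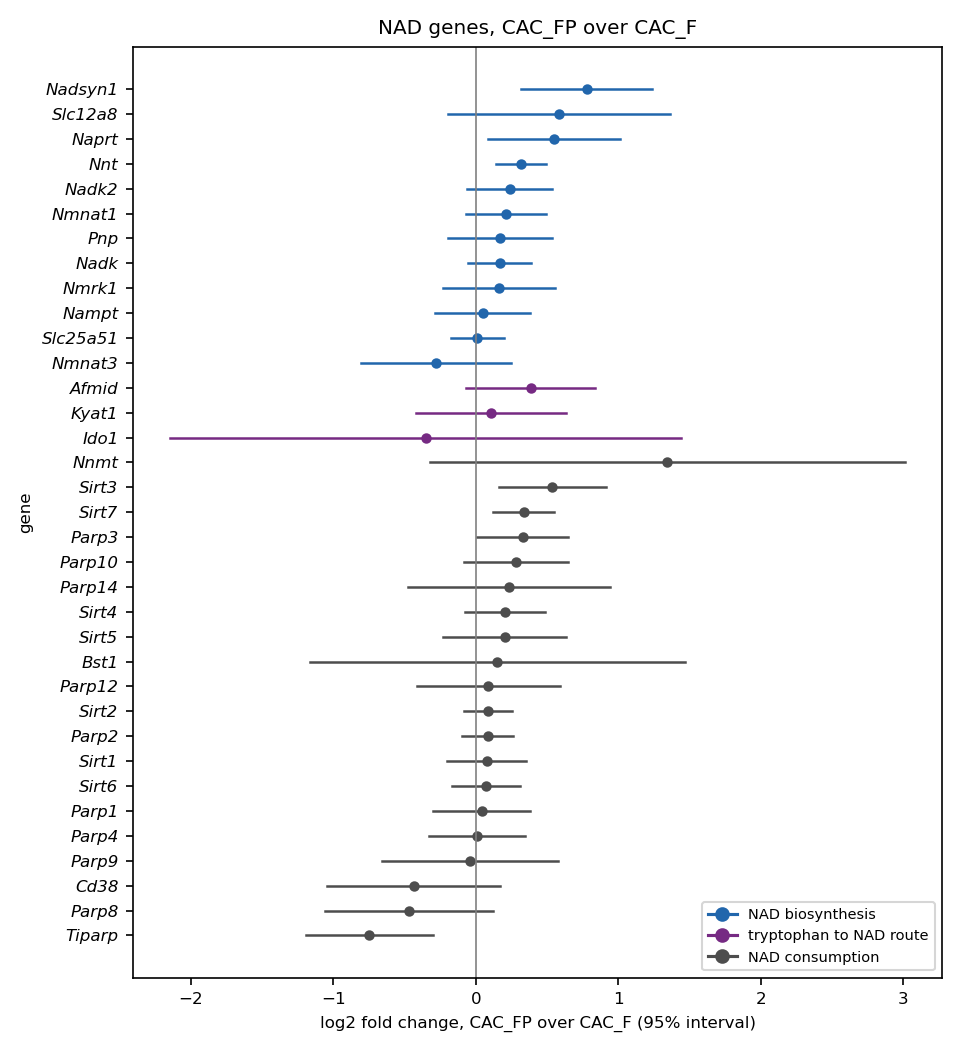
Log2 fold change of CAC_FP over CAC_F for the tested genes listed for NAD+ synthesis, the tryptophan route and NAD+ consumption, with 95% intervals. The intervals of Nadsyn1, Naprt, Nnt, Parp3, Sirt3, Sirt7 and Tiparp leave out 0 before adjustment, while that of Nampt runs over -0.28 to 0.38.

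Mitochondrial metabolism, which uses NAD+, leaned the same way by small amounts. Of 26 tested genes of oxidative phosphorylation 25 were positive with a median of 0.14, of 23 of the tricarboxylic acid cycle 20 with a median of 0.16, and of 23 of fatty acid oxidation 21 with a median of 0.28. Without CAC_F replicates 1 and 2 the medians were 0.09, 0.07 and 0.11. Pck1, which draws carbon from the cycle towards glucose, had 90.5, 60.5, 18.7, 62.8 and 103 CPM in CAC_FP, against 21.0, 6.48, 28.0, 38.7 and 23.0 CPM in CAC_F. CAC_FP replicate 3 lay within the CAC_F range and the other 4 above it, and the log2 fold change was 1.52 ± 0.44 (adjusted p = 0.143, edgeR), and 1.15 ± 0.47 without the 2 libraries. Sdha, the flavin subunit of succinate dehydrogenase, and Acadm, which oxidises medium-chain fatty acids, had log2 fold changes of 0.33 ± 0.14 and 0.59 ± 0.20, and of 0.19 and 0.46 without the 2 libraries. Ppara, a nuclear receptor for fatty acids, had 5.22 to 24.5 CPM in CAC_FP and 1.26 to 7.48 CPM in CAC_F (1.23 ± 0.48). Transcripts of the mitochondrial genome held 5.43% ± 0.67 of counts in CAC_FP and 4.58% ± 0.48 in CAC_F (SD, n = 5 each), a difference of 0.843 percentage points with a two-sided exact permutation p of 0.0476. The smallest p the design allows is 0.0079, and adjusted over the 2 such totals tested, the other being summed haemoglobin, p was 0.0952.

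**Figure D5:**
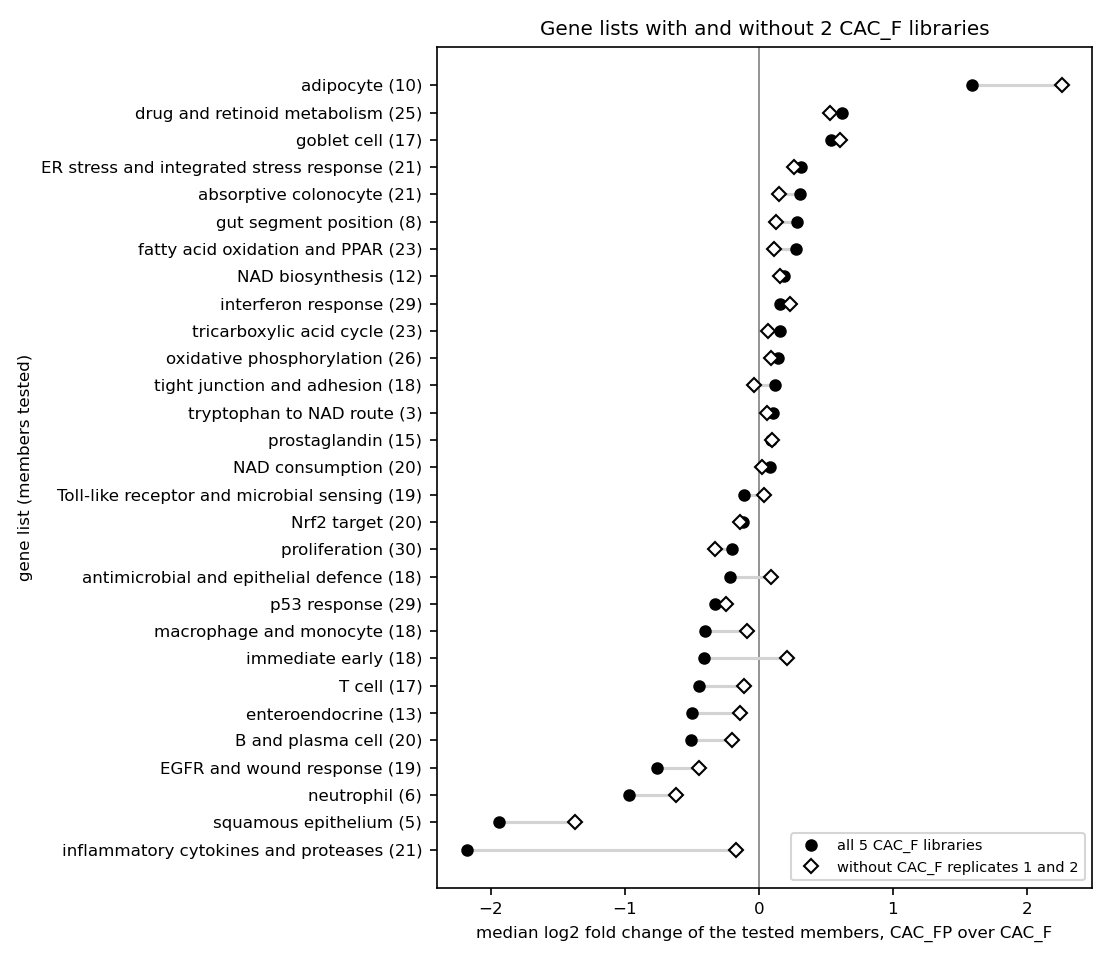
Median log2 fold change of CAC_FP over CAC_F for 29 gene lists, with the number of members tested in brackets, with all libraries (filled circles) and without CAC_F replicates 1 and 2 (open diamonds). The inflammatory list is at -2.18 with all libraries and at -0.17 without the 2, and the immediate early list at -0.41 and 0.21, while goblet cell genes are at 0.54 and 0.61 and drug and retinoid metabolism at 0.62 and 0.53.

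Markers of position along the gut differed in single genes, in both directions, and edgeR called none. Hoxa13, a gene of the distal colon and rectum, had 3.83, 1.25, 0.538, 2.99 and 2.54 CPM in CAC_FP, against 1.60, 19.2, 27.1, 14.8 and 11.6 CPM in CAC_F. CAC_F replicate 1 lay within the CAC_FP range and the other 4 CAC_F libraries far above it. Hoxa11 had 2.54 to 9.98 CPM in CAC_FP and 6.31 to 27.7 CPM in CAC_F. Its log2 fold change was -1.49 ± 0.46 (adjusted p = 0.152 in edgeR and 0.0490 in DESeq2). Hoxb6 and Hoxb8, named after their values were seen, lay the other way, with every CAC_FP library above every CAC_F library and log2 fold changes of 0.98 ± 0.67 and 0.95 ± 0.67 that did not pass (adjusted p = 0.478 and 0.491, edgeR). Of the 8 position genes tested 5 were positive and 3 negative, with a median of 0.28, and of 0.13 without the 2 libraries. Their summed level was 156 to 271 CPM in CAC_FP and 127 to 230 CPM in CAC_F, and Hoxd12 was at 0 in all 10 libraries. With the mean log2 level of Hoxa13, Hoxd11, Hoxd12 and Hoxd13 as a covariate edgeR called 0 genes, and 2398 had an unadjusted p below 0.05. The count was 0 without the covariate too, so it could not fall. The score also joins genes of opposite direction, Hoxa13 at -2.73 and Hoxd11 at 0.80, so it follows the Hoxa13 difference only in part. The part of the sampled segment in the epithelial differences above was therefore not tested.

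All 10 adipocyte genes were positive, with a median of 1.59, and of 2.27 without CAC_F replicates 1 and 2, and their summed level was 183 to 1762 CPM in CAC_FP and 143 to 908 CPM in CAC_F. Lep, leptin, had 33.2, 0, 8.61, 0 and 16.0 CPM in CAC_FP, against 0, 7.81, 1.21, 0 and 0.216 CPM in CAC_F, so it was high in CAC_FP replicates 1, 3 and 5 and in CAC_F replicate 2. All 5 tested keratin and squamous genes of 14 found were negative, with a median of -1.94, and of -1.38 without the 2 libraries, at 11.9 to 33.8 CPM summed in CAC_FP and 21.2 to 62.8 CPM in CAC_F. Smooth muscle genes had a median of -0.01, and of 0.02 without the 2 libraries, with 2009 to 5162 CPM summed in CAC_FP and 2667 to 4424 CPM in CAC_F. The part of fat and squamous tissue in the results was not tested.

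Set against CAC, edgeR called 2802 genes (18.6%) in CAC_FP and 5902 genes (39.1%) in CAC_F. Without CAC_F replicates 1 and 2 the counts were 3156 in CAC_FP and 3999 in CAC_F. Both comparisons share the 5 CAC libraries, and the difference between the counts was not tested beyond the comparison of CAC_FP with CAC_F itself. The tissue of CAC also differed: summed haemoglobin was 27.9 to 254 CPM there and at most 0.328 CPM in CAC_FP and 0.132 CPM in CAC_F. Smooth muscle genes had a median log2 fold change over CAC of -1.41 in both. With a smooth muscle covariate the counts were 1656 in CAC_FP and 4886 in CAC_F, and the part of blood was not tested. Aoc1 had log2 fold changes of -0.98 (adjusted p = 0.0446) in CAC_FP over CAC and -2.55 (3.6e-05) in CAC_F over CAC, both in edgeR. Guca2a had -0.54 (0.313) in CAC_FP and -1.93 (5.5e-04) in CAC_F. Lif, conversely, had 1.61 (0.0288) in CAC_FP and 3.95 (3.6e-05) in CAC_F. Nadsyn1, of NAD+ synthesis, had -0.30 (0.353) in CAC_FP and -1.07 (8.2e-04) in CAC_F. The transhydrogenase Nnt had -0.26 (0.0359) in CAC_FP and -0.58 (5.7e-05) in CAC_F. These 5 genes had small unadjusted p between CAC_FP and CAC_F, and the same libraries enter here. That CAC_FP lay between CAC and CAC_F in them is therefore no separate evidence. For Lif the log2 fold change of CAC_FP over CAC_F was -2.33 with all libraries and -0.83 without CAC_F replicates 1 and 2. In the direct comparison of CAC_FP with CAC_F edgeR called none of these 5 genes, and DESeq2 called all 5, at adjusted p of 0.0052 for Aoc1, 0.0259 for Guca2a, 0.0022 for Lif, 0.0490 for Nadsyn1 and 0.0421 for Nnt.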

How the data were processed

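RNA was extracted with Trizol and made into stranded mRNA libraries by dUTP marking, per the labels' protocols. Cutadapt 1.9, FastQC and HISAT2 are listed in the submitters' processing notes. The counting tool, annotation and build of the counts are not given there or elsewhere in the labels. For 39971 genes the deposited table gives whole-number counts, not normalized, and beside them the authors' FPKM. Of 37029 gene IDs shared with GENCODE M21 (GRCm38), 1.76% had the same coordinates there, so no coordinates of the table are given.

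The filter required 5 or more of the 27 libraries to reach an FPKM of 1, which 15080 genes did. Counts were TMM-scaled and fitted with 1 coefficient per group over all 27 libraries by edgeR 4.0.16 in R 4.3.3, two-sided, called at an adjusted p below 0.05. Log2 fold changes carry an SE derived from the F statistic, which is approximate near 0 counts. Levels are CPM over TMM-scaled libraries. The labels give each library as 1 sample and do not say whether animals were pooled, so p-values measure the spread between these samples. The scripts were tested on simulated data.

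Where no gene was called, the named genes were the 8 with the smallest unadjusted p per direction and a mean FPKM of at least 1, up to 3 members of each described list by p, and 20 always named. A few genes under this rule are not reported here. The members, lists and tests were chosen with earlier results of these data known, so no list is independent evidence of its direction. The counts of lists are descriptions beside the same counts over all genes. DESeq2 1.42.0, voom (limma 3.58.1) and other alternatives are given in the closing section. How reads that fit several gene copies were counted is not stated, so values of members of close gene families (Reg3, Ugt2b, Cyp2c) are uncertain.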

Additional observations from a re-analysis of the deposited data

Results flagged for a closer look

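Of 234 groups of 5 libraries examined for the named genes, 17 held a single library far from the other 4, and chance alone gives about 1 in 20. All levels are TMM-scaled CPM, and no cause was tested. In CAC_FP, replicate 3 was low for Tlr7 (3.72, the others 8.58 to 8.73), for Scg2, a granule protein of endocrine cells (4.38, the others 11.3 to 14.2), for Hoxa11 (2.54, the others 6.96 to 9.98) and for Hoxd11 (1.12, the others 5.85 to 8.95). CAC_FP replicate 4 was low for Plau (16.9, the others 36.1 to 44.4) and high for Ppara (24.5, the others 5.22 to 8.18). CAC_FP replicate 2 was high for Pla2g4a, a phospholipase that releases arachidonic acid (76.9, the others 57.4 to 60.8), and for Krt6a, a keratin of squamous epithelium (3.00, the others 0.265 to 0.646). CAC_FP replicate 5 was low for Nmnat1 (9.92, the others 13.2 to 14.5).

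In CAC_F, replicate 2 was low for 5 epithelial genes: Atoh1 (3.79, the others 23.2 to 41.0), Guca2a (32.7, the others 119 to 198), Car1 (331, the others 2405 to 2965), Cyp2c55 (1.23, the others 29.7 to 86.3) and Cldn15 (28.4, the others 92.5 to 123). This library was also among the 2 with the highest inflammatory genes. CAC_F replicate 1 was high for Tmem39a (34.2, the others 26.8 to 28.5), replicate 5 was low for Nos2, the inducible nitric oxide synthase (13.3, the others 94.1 to 170.1), and replicate 3 was high for Sirt1 (29.2, the others 20.8 to 22.8).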

How the results depend on the processing

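The count of 0 called genes between CAC_FP and CAC_F was 238 with DESeq2 and 38 with voom, and 0 to 616 when each library was left out in turn. List members called were 20 with DESeq2, 2 with voom (Gclc among them) and 0 to 29 on leaving out libraries. Genes at an unadjusted p below 0.05 were 4155 with no filter, 1350 at a mean FPKM of at least 5, 644 without both CAC_F replicates 1 and 2, and 1470 to 3350 on leaving out 1 library. Without CAC_FP replicate 4 they were 1703. Genes whose groups do not overlap were 220 at the higher filter, 613 without both, and 407 to 1240 on leaving out 1, where fewer libraries make separation easier. Genes with the whole interval within 1 log2 unit were 7018 at the higher filter, which tests fewer genes, and 11021 to 11801 on leaving out 1.

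Calls in CAC_F over CAC were 3708 at the higher filter and 5092 to 5927 on leaving out 1. Calls in CAC_FP over CAC were 5187 with voom, 1656 with a smooth muscle covariate, and 1515 to 3182 on leaving out 1. The cause was not tested except where stated. The difference in mitochondrial share was 0.837 percentage points without both CAC_F replicates (exact permutation p = 0.161), and 0.571 to 1.03 on leaving out 1, with exact permutation p of 0.0159 to 0.0952. That in haemoglobin was 0.0461 to 0.128 CPM, with p of 0.0317 to 0.381.

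With a replicate block the count of calls stayed at 0, and 2380 genes (all libraries) and 2470 genes (CAC_FP and CAC_F alone) had an unadjusted p below 0.05. Libraries of the same number shared only that number: the correlations of their deviations were 0.13, -0.15, 0.19, 0.36 and 0.11, and 2 of 5 went best with their own. Of the named genes' alternative values, 2850 stayed on their side of the threshold in the same direction, 75 passed it and 29 moved, and of the list medians 1202 stayed and 20 moved.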
